A study of Mus musculus with 6 samples.

Results

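Transcripts of 46 genes of DNA replication and cell division were examined in sorted mouse microglia, the resident macrophages of the brain, with and without the transcription factor IRF8. The genes were taken from a list of names and were matched by symbol among the 49585 genes of the count files. They form a replication set of 23 genes that act in S phase, a mitosis set of 18 genes, and 5 regulators of G1 (Ccnd1, Ccnd2, Ccnd3, Ccne1 and Cdkn1a) that belong to neither. The 6 libraries came from male mice aged 3 months, 3 of genotype WT and 3 of genotype IRF8KO, with each library made from its own brain after isolation without enzymes and sorting into TRIzol. The labels name no strain, knockout allele, Cre driver or sorting gate, and no treatment was given. Where a bulk library is compared with another, fewer cells of a type and less RNA per cell cannot be told apart.

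A cell that divides passes through G1, copies its DNA in S phase and separates the copies in mitosis. D-type cyclins with CDK4 or CDK6 open the way out of G1, which releases E2F factors to transcribe replication genes. Mitosis genes are mostly held down by the DREAM complex at CHR elements and are switched on later by B-MYB and FOXM1. Microglia of the adult brain renew slowly and most are out of the cycle at any moment, although they can divide after injury.

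The promoters of both sets carried different letters, and a few are shown because they belong to the members that differed between genotypes. Of the 46 members, 38 had an entry in the RefSeq promoter table (GRCm38.p6, 250 bases before to 50 after the start). Both strands were searched for an E2F-like motif (TTTNNCGC), the CHR core (TTTGAA) and the NF-Y motif CCAAT. The E2F-like motif was in 12 of 28 promoters of the replication set (42.9%), in 1 of 14 of the mitosis set (7.14%) and in 5.17% of all 32851 promoters of the same length. CHR was in 3 of 28 (10.7%), 9 of 14 (64.3%) and 17.9%, and CCAAT was in 16 of 28 (57.1%), 13 of 14 (92.9%) and 37.4%. The interferon response motif ISRE is GAAA and GAAA with NN between, and the ETS-IRF motif EICE is GGAA and GAAA with NN between. Each was in 0 of 28 promoters of the replication set and 0 of 14 of the mitosis set. Each was also in 0 of 5 promoters of 3 G1 regulators (Ccne1, Cdkn1a and Ccnd3), against 3.44% and 2.72% of all promoters. Ccnd1 and Ccnd2 had no entry and were not searched. The 150 bases before the RefSeq start follow for Mcm6 (chr1:128359706-128359855, minus strand), Mcm3 (chr1:20820313-20820462, minus), Dut (chr2:125247365-125247514, plus), Cenpa (chr5:30666736-30666885, plus), Aurka (chr2:172370571-172370720, minus) and Cdk1 (chr10:69352913-69353062, minus). They are written 5′ to 3′ on the gene's strand, with every E2F-like, CHR and CCAAT match in capitals, on either strand.
Mcm6: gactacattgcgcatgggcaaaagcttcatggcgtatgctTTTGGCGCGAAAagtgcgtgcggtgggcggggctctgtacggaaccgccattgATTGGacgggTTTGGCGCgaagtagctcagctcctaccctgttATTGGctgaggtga
Mcm3: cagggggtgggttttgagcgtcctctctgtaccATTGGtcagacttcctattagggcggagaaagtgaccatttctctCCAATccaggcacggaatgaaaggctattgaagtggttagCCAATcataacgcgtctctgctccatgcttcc
Dut: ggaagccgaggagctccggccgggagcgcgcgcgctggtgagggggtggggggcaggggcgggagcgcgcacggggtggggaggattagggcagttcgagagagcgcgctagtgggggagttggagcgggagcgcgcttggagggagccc
Cenpa: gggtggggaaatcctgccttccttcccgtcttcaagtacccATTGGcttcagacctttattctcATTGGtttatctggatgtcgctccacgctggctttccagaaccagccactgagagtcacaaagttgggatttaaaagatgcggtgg
Aurka: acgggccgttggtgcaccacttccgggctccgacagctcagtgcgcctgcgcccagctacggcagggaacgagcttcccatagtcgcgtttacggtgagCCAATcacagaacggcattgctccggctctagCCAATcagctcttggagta
Cdk1: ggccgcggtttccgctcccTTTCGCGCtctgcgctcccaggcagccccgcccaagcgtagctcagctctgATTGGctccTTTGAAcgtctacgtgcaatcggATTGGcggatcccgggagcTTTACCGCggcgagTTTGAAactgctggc
Mcm6 had 3 E2F-like matches in this stretch, of which 2 overlap each other, and Cdk1, which is shown as a mitosis member that did not differ, had 2 E2F-like and 2 CHR matches. The stretch of Dut held none of these motifs. The CHR matches of Cenpa and Aurka and the E2F-like matches of Mcm3 lie after the start and are not shown. A match describes letters and is not evidence of binding.

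The libraries held between 3658917 and 11098363 gene counts. Levels are CPM, counts per 1000000 of the library size scaled by TMM, a method that makes most genes alike between libraries, and were tested with edgeR's quasi-likelihood test over 11041 genes. A gene is called when its Benjamini-Hochberg adjusted p is under 0.05. In all, 2109 genes were called (19.1%), 1064 of them higher in IRF8KO (9.64%) and 1045 lower (9.46%). The groups did not overlap for 37.9% of the tested genes, 20.0% with IRF8KO higher and 17.9% with IRF8KO lower. Irf8 itself was counted in every library, with 795, 851 and 1403 CPM in WT and 743, 650 and 850 CPM in IRF8KO. It was not called (log2 fold change −0.44, edgeR adjusted p = 0.368). It was called in 1 of 19 alternatives, with library size as the only scaling (−0.90, edgeR adjusted p = 0.0076), where the median of all genes was −0.61. Whole-gene counts cannot tell a deleted exon from an intact one, so the genotype rests on the labels.

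Some libraries stood apart. In WT replicate 3 the difference from the other WT libraries rose with the GC content of genes (Spearman correlation 0.615 across 11034 genes, a description). The same correlation was −0.435 for IRF8KO replicate 2 against the other IRF8KO libraries and 0.276 for IRF8KO against WT. IRF8KO replicate 2 held transcripts of the neutrophil lineage: the summed level of 12 markers was 381 CPM there, with 1350 counts of S100a8 and 883 of Ngp, against 2.06 CPM in the lowest IRF8KO library and 0.142 to 1.24 CPM in WT. The 11 microglial markers summed to 42970 to 69839 CPM in WT and 32968 to 46167 CPM in IRF8KO, most of it from Csf1r and Tmem119. Of these markers 5 were called lower in IRF8KO and 1 higher, and Sall1 was at 0 in all IRF8KO libraries. Border macrophage markers summed to 643 to 850 CPM in WT and 3855 to 5053 CPM in IRF8KO, where 8 of 9 tested markers were called higher and Lyve1 had 0 counts in every library. Neuronal markers summed to 0.779 to 14.9 CPM in WT and 36.5 to 59.3 CPM in IRF8KO, with 3 of 6 tested called higher. Of 9 tested astrocyte markers 5 were called higher and 1 lower (sums of 193 to 225 CPM and 177 to 289 CPM). Lymphocyte markers, mainly Ighm and Cd79b, summed to 519 to 859 CPM in WT and 32.9 to 45.1 CPM in IRF8KO, while Cd3e, Cd3g and Cd8a were at 0 in every library and Cd4 had 0 counts in WT and 26, 37 and 41 in IRF8KO, where it was called higher. Red blood cell markers summed to 0 to 57.6 CPM in WT and 53.8 to 437 CPM in IRF8KO with none of 5 tested called, and monocyte markers to 0.827 to 2.97 CPM and 4.01 to 56.9 CPM. The only tested monocyte and neutrophil markers, Fn1 and Cxcr2, were called higher, each with counts in all IRF8KO libraries. Endothelial and pericyte markers summed to 20.1 to 30.5 CPM in WT and 13.3 to 15.7 CPM in IRF8KO. Of 3 tested Pecam1 was called lower, while Vwf and Pdgfrb were not called (log2 fold changes of 2.84 and 3.27). Of 7 tested oligodendrocyte-lineage markers Cspg4 was called higher and Cnp lower. Of the progenitor markers, Cd34 was abundant in both groups, Tfrc had means of 1.19 and 1.07 CPM and Flt3 of 0.926 and 0.742 CPM in WT and IRF8KO, and Car2 of 0.454 and 1.37 CPM. Eomes, Sox2 and Car1 had no counts, and none of the 2 tested was called. Cd163, F13a1, Fn1, Cxcr2, Cd4, Syt1, Slc1a2 and S100b reached the filter's level in no WT library and Sall1 in no IRF8KO library. They were tested through the group where they are high, so the filter fixed part of the counts of called markers. The part of these differences in the results below was not tested.

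Most of the mitosis set was almost silent in both genotypes. Of its 18 members, 12 did not pass the expression filter, and those 12 summed to 18, 24 and 36 counts in WT and 10, 67 and 43 counts in IRF8KO. Bub1, a kinase of the spindle checkpoint, was not counted in any of the 6 libraries; a count of 0 leaves room for a level of up to 0.212 to 0.584 CPM, or 3 counts. Mki67, whose protein Ki-67 is the standard marker of cycling cells, had 3 counts in all, 1 in WT replicate 2 and 2 in IRF8KO replicate 1. Ccna2 and Ccnb2, which encode cyclins of S phase and mitosis, had 1 count each, and Cenpe, a kinetochore motor, had 2. No fold is given for these genes.

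The rest of the untested mitosis members were counted in scattered libraries. Top2a, the topoisomerase that untangles chromosomes, had 11 counts in IRF8KO replicate 2 and 0 in the other 5 libraries. Ube2c, which hands ubiquitin to cyclins at anaphase, had 3, 1 and 4 counts in WT and 0, 23 and 2 in IRF8KO, and Aurkb, the kinase of the chromosomal passenger complex, had 1, 2 and 17 in WT and 0, 15 and 0 in IRF8KO. The IRF8KO counts of Top2a, and most of those of Ube2c and Aurkb, thus came from IRF8KO replicate 2, the library with neutrophil-lineage transcripts, and the part of those cells was not tested. Tpx2, a spindle assembly factor, had 18 of its 21 counts in IRF8KO replicate 3, and Ccnb1 had 19 of its 29 counts there. Birc5 (survivin) had 16 counts in WT and 21 in IRF8KO, and Plk1, a mitotic kinase, had 17 and 8. Over each group, the ratio of IRF8KO to WT was 1.31 for Birc5 (exact 95% interval 0.651 to 2.68) and 0.469 for Plk1 (0.175 to 1.15), intervals that cover counting error only.

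**Figure D1:**
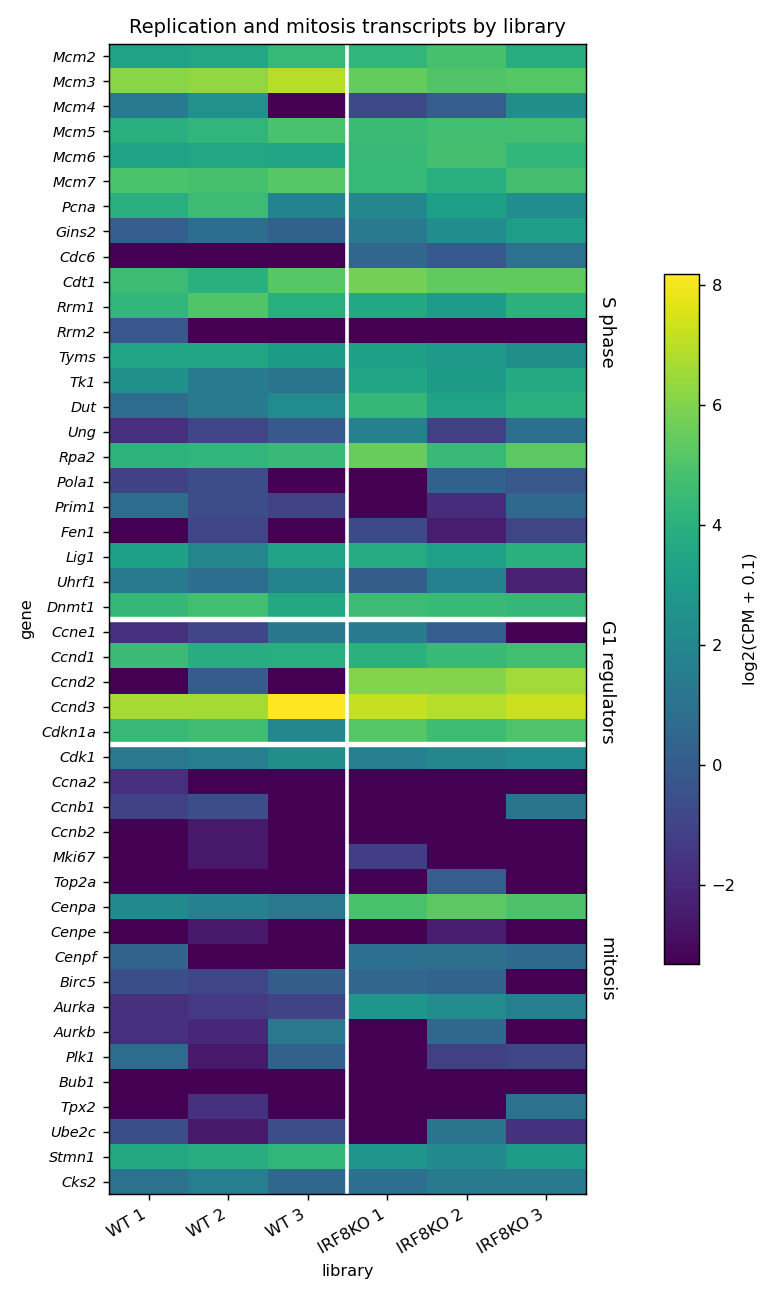
Level of each of the 46 members in each library, as log2(CPM + 0.1), with rows for genes in the 3 sets and columns for the 3 WT and 3 IRF8KO libraries. Dark rows are genes at or near 0: most mitosis members are dark in every library, while Ccnd2, Cenpa and Aurka are brighter in all 3 IRF8KO columns.

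Against this low background, Cenpa and Aurka were higher in IRF8KO. They are 2 of 18 mitosis members, of which 6 were tested with a median log2 fold change of 1.24; 9.64% of all tested genes were called higher. Aurka and Cenpf passed the filter through their IRF8KO libraries, so neither the count nor the median over the 6 describes the set. Cenpa encodes the histone H3 variant that marks centromeres. Its levels were 4.28, 3.26 and 2.34 CPM in WT and 29.2, 38.9 and 31.6 CPM in IRF8KO, so the lowest IRF8KO library lay well above the highest WT library. The means were 3.29 ± 0.969 and 33.2 ± 5.03 CPM (SD, n = 3 each). The log2 fold change was 3.34 (SE 0.40, edgeR adjusted p = 1.9e-04), and the call held in all 19 alternatives. Cenpa (ENSMUSG00000029177, chromosome 5, 30666777 to 30674830, plus strand, GRCm38) shares no exonic base with another gene of the annotation. Aurka encodes the kinase that matures centrosomes and builds the spindle. It had 1, 4 and 3 counts in WT and 40, 51 and 28 in IRF8KO, or 0.195, 0.283 and 0.414 CPM (0.297 ± 0.110, SD, n = 3) against 6.42, 4.58 and 3.04 CPM (4.68 ± 1.69). The groups did not overlap, and the log2 fold change was 3.89 (SE 0.81, edgeR adjusted p = 0.0062). Aurka is ENSMUSG00000027496 on chromosome 2, 172356190 to 172370535, minus strand. No WT library reached the filter's level for Aurka (1.01 CPM of the unscaled library size), so it was tested through its IRF8KO libraries. The Aurka call held in all 18 alternatives that gave a value. Without IRF8KO replicate 2, the library with neutrophil-lineage transcripts, the log2 fold changes were 3.22 for Cenpa and 3.91 for Aurka (edgeR adjusted p = 0.0011 and 0.019).

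The other 4 tested mitosis members were not called. Cdk1, the kinase that drives entry into mitosis, had 2.33, 3.04 and 5.10 CPM in WT and 3.05, 3.95 and 4.56 CPM in IRF8KO, overlapping ranges with a log2 fold change of 0.14 (SE 0.60). It was thus counted in every library although Ccna2 and Ccnb2, cyclins that activate it, had 1 count each. Ccnb1, another cyclin of the set, had 29 counts, 19 of them in IRF8KO replicate 3. Cks2, a small subunit of CDK complexes, had 1.95, 3.04 and 1.38 CPM in WT and 1.77, 2.51 and 2.49 CPM in IRF8KO. Stmn1, a protein that destabilises microtubules, had 12.1, 14.2 and 19.3 CPM in WT and 6.26, 4.49 and 8.24 CPM in IRF8KO. These ranges did not overlap, but the log2 fold change of −1.26 (SE 0.44) missed the threshold (edgeR adjusted p = 0.064) and passed it in 6 of 19 alternatives. Cenpf, a kinetochore protein, had 6, 0 and 0 counts in WT and 11, 20 and 13 in IRF8KO (log2 fold change 2.34, SE 1.33, edgeR adjusted p = 0.239). Leaving out 1 library moved the log2 fold change of Cenpf between 1.55 (without WT replicate 2, adjusted p = 0.540) and 7.0 (without WT replicate 1, which holds all of its WT counts, adjusted p = 0.035).

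Summed over the 18 mitosis members, levels were 25.5, 25.6 and 33.5 CPM in WT and 50.1, 62.2 and 56.0 CPM in IRF8KO. Cenpa alone made up 7.0% to 16.8% of that sum in WT and 56.4% to 62.5% in IRF8KO. Without Cenpa, left out after its values were seen, the sums were 21.2, 22.3 and 31.2 CPM in WT and 20.9, 23.3 and 24.4 CPM in IRF8KO, which overlap.

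Among the G1 regulators, Ccnd2 showed the largest difference of all 28 tested members. Ccnd2 encodes cyclin D2, one of the 3 D-type cyclins. It had 0, 13 and 0 counts in WT and 408, 742 and 893 counts in IRF8KO, or 0, 0.920 and 0 CPM against 65.5, 66.6 and 96.9 CPM (76.3 ± 17.8, SD, n = 3). Ccnd2 passed the filter through its IRF8KO libraries, with 1 WT library above the filter's level. The groups were far apart, with a log2 fold change of 7.40 (SE 0.69, edgeR adjusted p = 3.5e-05). Over the groups, the ratio of scaled counts was 157 (exact 95% interval 91.4 to 295, counting error only). The call held in all 18 alternatives that gave a value. Without WT replicate 2, which holds all WT counts of Ccnd2, the WT level is 0 and the fitted log2 fold change moved to 12.21. Ccnd2 (ENSMUSG00000000184, chromosome 6, 127125162 to 127152193, minus strand) overlaps other genes over 7.86% of its exonic length. They are Gm43126, with 0 counts, and 9330179D12Rik on the other strand, with 0 counts in WT and 6, 20 and 19 in IRF8KO.

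The other D-type cyclins were not called. Ccnd1, which shares 23.4% of its exonic length with LTO1, had 23.0, 14.2 and 15.3 CPM in WT and 16.4, 22.0 and 25.7 CPM in IRF8KO (log2 fold change 0.30, SE 0.36). Ccnd3 had 104, 98.5 and 291 CPM in WT and 144, 119 and 152 CPM in IRF8KO (−0.25, SE 0.40), and WT replicate 3 was the one high library. Without it the log2 fold change of Ccnd3 was 0.48 (edgeR adjusted p = 0.068). Compared per length, as CPM per kb of exon, Ccnd3 was the most abundant D-type cyclin in every library. Ccnd2 took 0% to 0.683% of the 3 D-type cyclins in WT and 25.9% to 31.2% in IRF8KO, and Ccnd3 took 70.8% to 91.1% and 52.3% to 61.1%. The summed level of all 3 overlapped, at 14.3 to 36.4 CPM per kb in WT and 25.3 to 33.0 in IRF8KO.

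Ccne1 and Cdkn1a act further along the path out of G1. Ccne1, whose cyclin E1 drives CDK2, was near the floor, with 1, 6 and 16 counts in WT and 16, 11 and 0 in IRF8KO. Cdkn1a, which encodes the CDK inhibitor p21, had 21.8, 25.5 and 3.86 CPM in WT and 35.8, 24.3 and 31.9 CPM in IRF8KO. WT replicate 3 was low, the other WT libraries overlapped the IRF8KO range, and the gene was not called (log2 fold change 0.84, SE 0.53, edgeR adjusted p = 0.291).

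**Figure D2:**
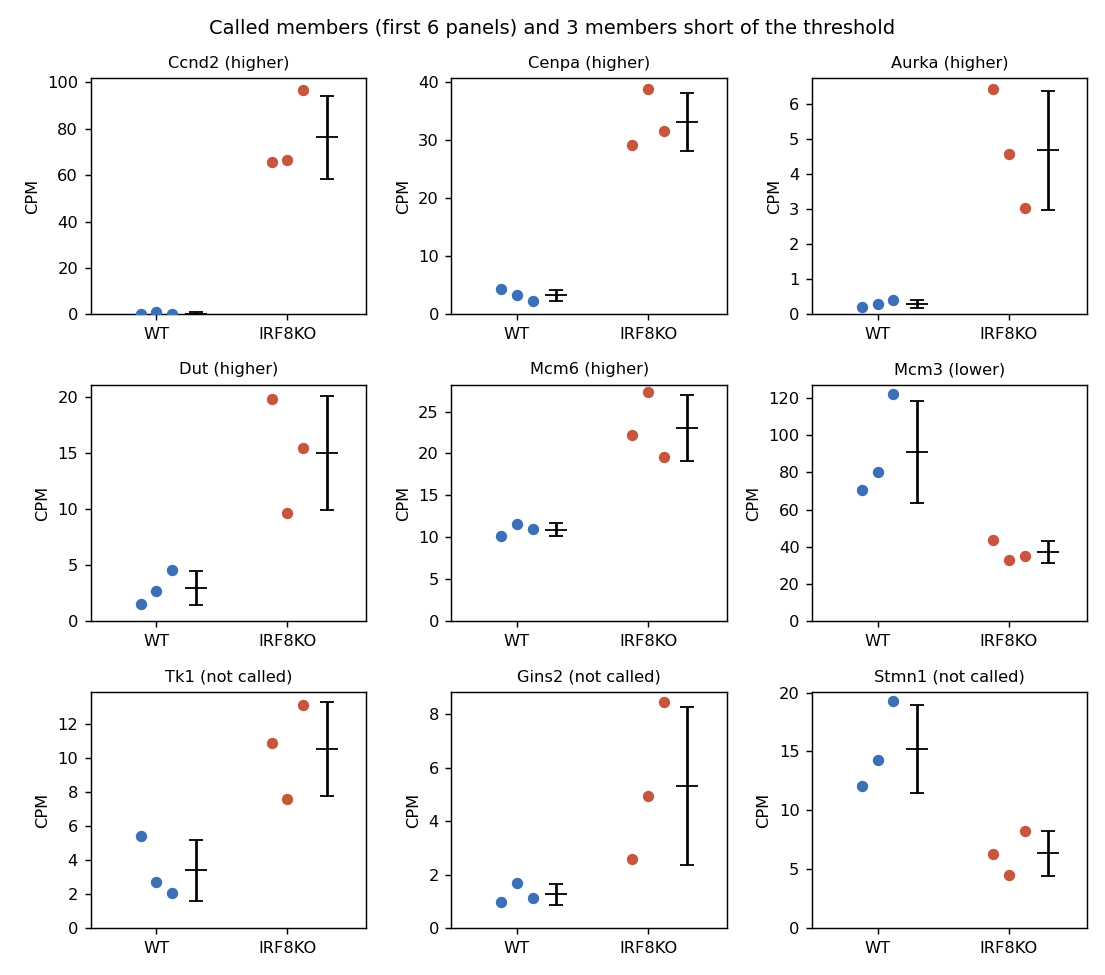
CPM of 9 members in each library, 1 point per library, with the mean and SD (n = 3) beside each group. Ccnd2, Cenpa, Aurka, Dut and Mcm6 were called higher in IRF8KO and Mcm3 lower, while Tk1, Gins2 and Stmn1 had groups that do not overlap but were not called.

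The replication set did not move as one. Of its 23 members 17 were tested, and 2 were called higher (Dut and Mcm6) and 1 lower (Mcm3), or 17.6% called where 19.1% of all tested genes were. Over all 3 sets 6 of 28 tested members were called, 5 of them higher, a count that includes Ccnd2 and Aurka, which were tested through their IRF8KO libraries. The log2 fold changes of the replication set ran from −1.29 to 2.34 with a median of 0.26, and 10 of 17 were above 0, against a median of −0.11 over all genes tested. That median of the set was 0.61 without WT replicate 3 and 0.43 without WT replicate 2. With library size as the only scaling it was −0.16, where the median of all genes was −0.61. The summed level of the 23 genes overlapped between the groups, at 268, 300 and 339 CPM in WT and 333, 277 and 315 CPM in IRF8KO. Mcm3 was left out of that sum after its values were seen, which moves the sum toward IRF8KO by construction; the rest was 198, 220 and 217 CPM in WT and 289, 244 and 280 CPM in IRF8KO.

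The 6 MCM genes encode the subunits of the replicative helicase, which loads onto origins as a ring of MCM2 to MCM7. Mcm3 had 70.6, 80.3 and 122 CPM in WT (91.1 ± 27.5, SD, n = 3) and 43.8, 33.0 and 34.9 CPM in IRF8KO (37.3 ± 5.76). Mcm3 (ENSMUSG00000041859, chromosome 1, 20802968 to 20820312, minus strand) was lower in every IRF8KO library than in any WT library, a log2 fold change of −1.29 (SE 0.30, edgeR adjusted p = 0.011). Leaving out IRF8KO replicate 3 ended the call (−1.24, adjusted p = 0.082). Mcm6 had 10.1, 11.6 and 11 CPM in WT (10.9 ± 0.754, SD, n = 3) and 22.2, 27.3 and 19.6 CPM in IRF8KO (23.0 ± 3.90), again with no overlap but in the other direction. Its log2 fold change of 1.07 (SE 0.35) was just past the threshold (edgeR adjusted p = 0.049), and the call was lost in 12 of 19 alternatives, among them leaving out any library but WT replicate 3, with adjusted p of 0.103 to 0.160.

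The other 4 subunits were not called. Mcm2 had 10.1, 11.7 and 20.8 CPM in WT and 19.3, 28.4 and 14.3 CPM in IRF8KO, and Mcm5 had 14.6, 19.0 and 29.1 CPM and 22.6, 25.6 and 27.0 CPM. Both ranges overlapped. Mcm7 had 30.7, 28.7 and 36.8 CPM in WT and 21.0, 14.5 and 27.4 CPM in IRF8KO, without overlap (log2 fold change −0.61, SE 0.33, edgeR adjusted p = 0.215). Of its exonic length, 12.6% is shared with other genes. Mcm4 was low and uneven, with 13, 79 and 0 counts in WT and 3, 11 and 46 in IRF8KO.

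Set beside each other per length, the subunits were more even in IRF8KO. Mcm3 took 55.8% to 60.9% of the CPM per kb of the 6 subunits in WT and 30.7% to 39.3% in IRF8KO. Mcm6 took 4.41% to 6.49% and 14.1% to 20.4%, and Mcm5 took 10.8% to 13.6% and 19.1% to 22.6%. Shares of 1 sum are bound to each other: where that of Mcm3 is lower the others are higher, and the CPM of Mcm5 itself overlapped. Mcm7 had overlapping shares of 15.5% to 20.6% and 11.4% to 20.7%. The sum of the 6 was 33.7 to 53.5 CPM per kb in WT and 28.7 to 29.9 in IRF8KO.

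**Figure D3:**
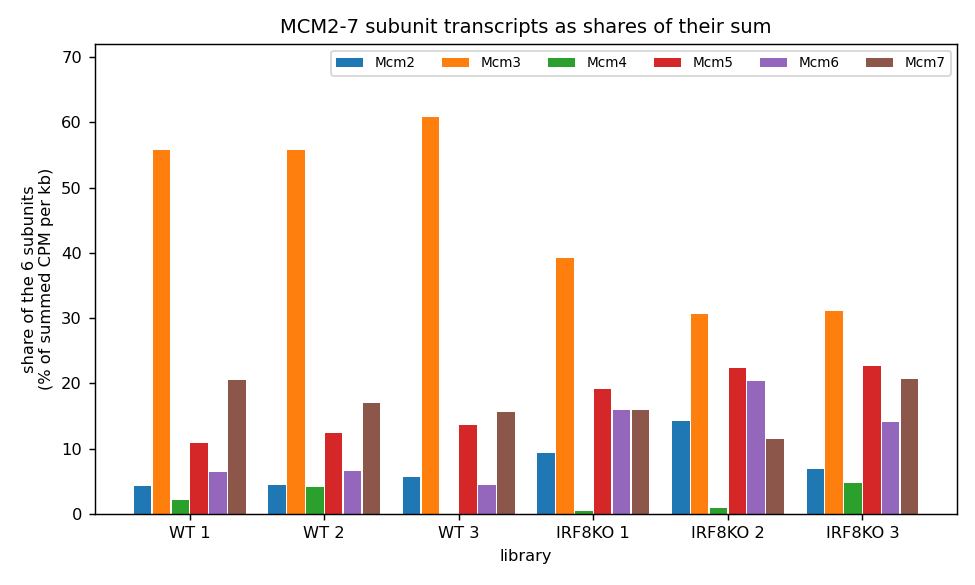
Share of each MCM2-7 subunit in the summed CPM per kb of exon of all 6, as a percentage, for each of the 6 libraries. Mcm3 takes 55.8% to 60.9% in the WT libraries and 30.7% to 39.3% in the IRF8KO libraries, where the bars of Mcm2, Mcm5 and Mcm6 are taller.

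None of the genes that load or activate the helicase was called. Cdt1, which brings MCM rings to origins, had 23.9, 15.9 and 36.3 CPM in WT and 55.5, 42.0 and 41.2 CPM in IRF8KO (log2 fold change 0.87, SE 0.34, edgeR adjusted p = 0.096). These groups did not overlap, and leaving out 1 library gave 0.61 (without WT replicate 2, adjusted p = 0.344) to 1.26 (without WT replicate 3, adjusted p = 0.0077). Cdc6, its partner in loading, had 0 counts in all WT libraries and 8, 9 and 18 in IRF8KO. It did not pass the filter. Against a floor of 3 counts over the WT group it was at least 11.6-fold higher. Gins2, a subunit of the GINS complex that activates the helicase, had 5, 24 and 8 counts in WT and 16, 55 and 78 in IRF8KO (2.04, SE 0.69, edgeR adjusted p = 0.058). Gins2 shares 67.3% of its exonic length with Gse1 on the opposite strand, so its counts are uncertain. In the count columns of either strand its log2 fold change was 0.36 (edgeR adjusted p = 0.572 and 0.553). Those columns tested 10625 and 10605 genes, so reads did not keep to 1 strand. Either column can thus hold Gse1 reads from the shared stretch, and the 0.36 cannot settle the level of Gins2. Gse1 had 10.9 CPM in WT and 8.71 CPM in IRF8KO on average.

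Among enzymes of nucleotide supply only Dut was called. It encodes the dUTPase that keeps uracil out of DNA. Dut had 1.56, 2.69 and 4.55 CPM in WT (2.93 ± 1.51, SD, n = 3) and 19.9, 9.69 and 15.5 CPM in IRF8KO (15.0 ± 5.12), a log2 fold change of 2.34 (SE 0.53, edgeR adjusted p = 0.010) with no overlap. Dut is ENSMUSG00000027203 on chromosome 2, 125247190 to 125258608, plus strand. The call was lost without IRF8KO replicate 1 (2.09, adjusted p = 0.054) or IRF8KO replicate 3 (2.32, adjusted p = 0.053). Tk1, thymidine kinase, had 5.45, 2.69 and 2.07 CPM in WT and 10.9, 7.63 and 13.1 CPM in IRF8KO. It just missed the threshold (1.65, SE 0.54, edgeR adjusted p = 0.051) and passed it in 7 of 19 alternatives. The subunits of ribonucleotide reductase, which makes deoxyribonucleotides, were not called or not tested. Rrm1 had 19.5, 33.6 and 15.0 CPM in WT and 12.2, 8.17 and 16.6 CPM in IRF8KO (−0.89, SE 0.42, edgeR adjusted p = 0.163). Rrm2, its partner subunit made in S phase, had 4 counts in WT replicate 1 and 0 in the other 5 libraries. Tyms, thymidylate synthase, had 7.58 to 11.1 CPM in WT and 5.10 to 9.31 CPM in IRF8KO.

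The genes of the fork itself were not called. Pcna, the sliding clamp of DNA polymerases, had 14.8, 23.6 and 3.58 CPM in WT and 3.85, 8.97 and 4.88 CPM in IRF8KO. WT replicate 3 was below every IRF8KO library, and without it Pcna was called lower (log2 fold change −1.63, edgeR adjusted p = 0.025), against −1.24 and 0.189 with it. Without WT replicate 2, the highest library, it was −0.63 (adjusted p = 0.635). Rpa2, a subunit of the single-strand binding protein, had 17.5, 18.9 and 22.1 CPM in WT and 46.1, 21.3 and 39.0 CPM in IRF8KO (0.86, SE 0.35, edgeR adjusted p = 0.104). IRF8KO replicate 2 was the low library, and Rpa2 was called without it (1.13, adjusted p = 0.038) or without WT replicate 3 (0.97, adjusted p = 0.046), and was at 0.64 without IRF8KO replicate 1 (adjusted p = 0.340). Lig1, the ligase that joins Okazaki fragments, had 9.34, 3.68 and 9.79 CPM in WT and 13.5, 9.60 and 15.7 CPM in IRF8KO. Pola1 and Prim1, which start each fragment, and Ung, which removes uracil, did not pass the filter, with 29, 34 and 53 counts over all libraries. Fen1, the flap nuclease, had 14 counts, and Tmem258 and Gm10143 share 84.2% of its exonic length.

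Dnmt1 and Uhrf1 copy methylation onto new DNA. Dnmt1 had 20.0, 25.6 and 12.1 CPM in WT and 23.6, 21.7 and 20.2 CPM in IRF8KO, with a log2 fold change of 0.18 (SE 0.36). Uhrf1, which guides it to replicated sites, had 13, 24 and 25 counts in WT and 6, 36 and 1 in IRF8KO. The IRF8KO libraries thus spread more widely than the groups differed (−0.80, SE 0.96). Leaving out 1 library moved the log2 fold change of Uhrf1 between −2.28 and −0.24.

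**Figure D4:**
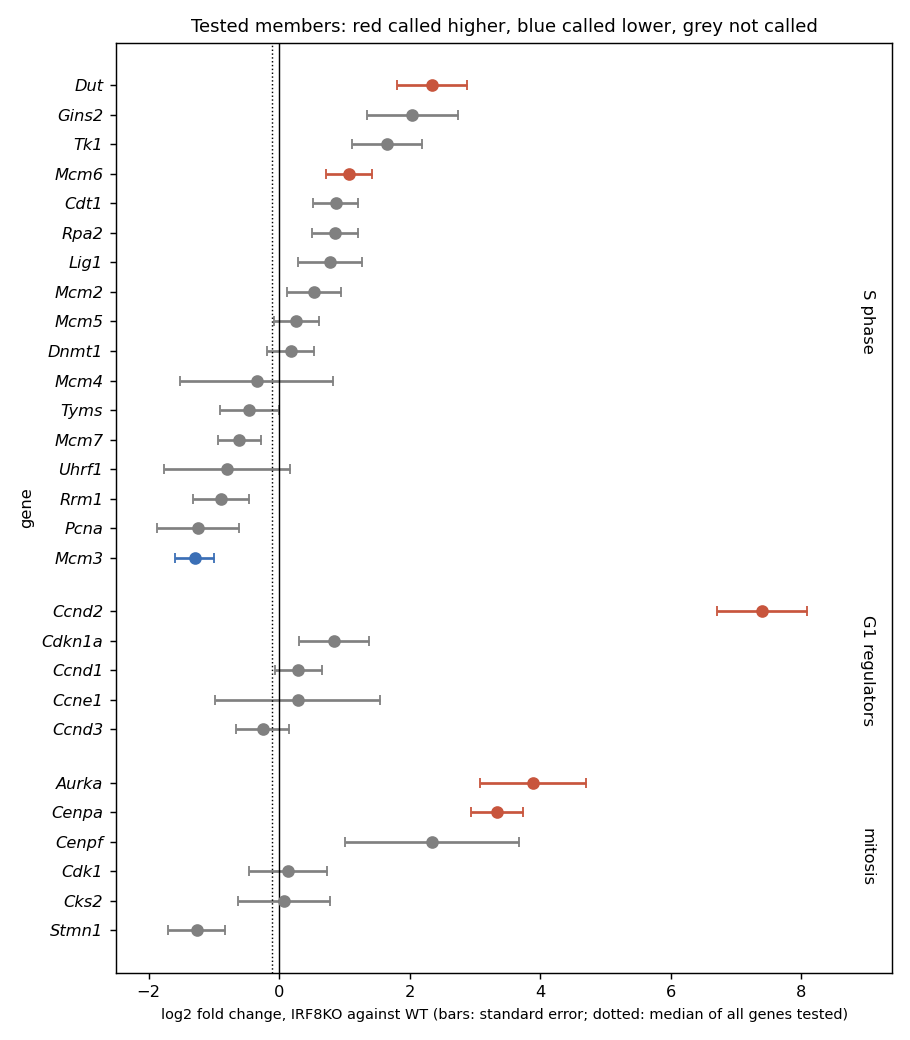
Log2 fold change of IRF8KO against WT with its standard error for the 28 tested members (n = 3 libraries per group), ordered within each set, with the median of all tested genes as a dotted line. Replication genes spread from −1.29 to 2.34 on both sides of 0, Ccnd2 stands alone at 7.40, and Aurka and Cenpa lie at 3.89 and 3.34.

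Wider lists give the other genes of these processes, to be read against the 19.1% of all tested genes that were called. Of 37 further replication genes 27 were tested and 1 was called, Asf1b, a histone chaperone of new chromatin, at 6.23, 5.52 and 5.10 CPM in WT and 15.4, 17.3 and 16.7 CPM in IRF8KO. The log2 fold change was 1.55 (edgeR adjusted p = 0.019), and the median of the 27 was −0.20. Of 55 further mitosis genes 26 were tested, with a median of 0.55, and 12 had 0 counts in every library, among them Kif11, Nuf2, Knl1 and Aspm. Cks1b, the paralogue of Cks2, was higher, at 3.89, 3.26 and 2.07 CPM in WT and 16.2, 12.2 and 14.1 CPM in IRF8KO (2.20, edgeR adjusted p = 0.0072). H2afz, a histone variant gene, was higher at 0.91 (adjusted p = 0.031 in the same edgeR test). Ncaph, a condensin subunit, was lower at −2.17 (edgeR adjusted p = 0.015).

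Of 26 further centromere genes 13 were tested and 2 were called, Cenpx and Pmf1, which encode a protein of the inner kinetochore and one of its outer MIS12 complex. Cenpx had 17.9, 20.4 and 39.0 CPM in WT and 68.7, 58.9 and 81.7 CPM in IRF8KO (log2 fold change 1.44, edgeR adjusted p = 0.013), and Pmf1 rose by 1.28 (adjusted p = 0.039 in the same edgeR test). Hjurp, the chaperone that places CENP-A at centromeres and a gene picked after its values were seen, was well expressed and was not called. It had 88.3, 87.7 and 52.4 CPM in WT and 106, 107 and 94.4 CPM in IRF8KO (0.43, edgeR adjusted p = 0.322).

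Of 33 further regulators of the G1 to S transition 25 were tested, with a median of −0.56. Myc, the growth and cell cycle factor, fell from 46.3, 60.6 and 27.6 CPM in WT to 5.14, 7.45 and 9.44 CPM in IRF8KO (log2 fold change −2.60, SE 0.39, edgeR adjusted p = 9.1e-04). Mxd4, which encodes a repressor that competes with MYC for MAX, rose from 35.0, 29.2 and 63.5 CPM to 120, 100 and 115 CPM (1.39, SE 0.33, edgeR adjusted p = 0.012). The groups of both genes were apart. Of 17 p53 pathway genes 14 were tested, and 5 were called, all lower in IRF8KO; 9.46% of all tested genes were called lower. Bbc3 and Trp53inp1 reached the filter's level in no IRF8KO library and were tested through WT, where they are high, so the filter fixed part of that count. They were Bbc3, Trp53inp1, Mdm2 and Btg2, with log2 fold changes of −4.38, −3.81, −2.23 and −2.83 (edgeR adjusted p between 0.0052 and 0.015), and Ccng1 (−1.67, adjusted p = 0.047), named after its values were seen. The groups of Btg2 overlapped, since WT replicate 3 had 114 CPM against 99.3 to 149 CPM in IRF8KO. Leaving out 1 library moved the log2 fold change of Btg2 between −3.31 and −1.95 and that of Bbc3 between −5.15 and −3.78. Cdkn1a, a p53 target among the members, was not called. Btg2 is also an immediate early gene, and 10 of 14 tested genes of the list of immediate early genes were called lower in IRF8KO, with summed levels of up to 11361 CPM in WT, 880 CPM in WT replicate 3, the lowest of its group, and 837 to 1125 CPM in IRF8KO. WT replicate 3 thus lay within the IRF8KO range for this list. The part of that list in these results was not tested.

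Of these 13 called genes, Myc, Mdm2 and Bbc3 kept their calls in each alternative that gave a value. Cks1b kept its call whichever library was left out. The other 9 lost theirs without at least 1 of WT replicates 1 and 2 and IRF8KO replicates 1 and 3, with adjusted p up to 0.176. Cenpx moved furthest, to a log2 fold change of 0.45 (edgeR adjusted p = 0.140) when gene GC content and length were corrected for in each library.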

How the data were processed

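Raw counts per gene were deposited for 6 libraries by the authors, in the layout of STAR's gene counts. Per the submitters' processing notes STAR 2.5.2b and build mm10 were used; Picard 2.17.11, Subread, featureCounts and bcl2fastq are also listed, with no role given, and the annotation release is not given in the sources used here. Per the labels' protocols, cDNA was made from sorted cells with SMART-Seq v4 and tagged with Nextera XT, without molecular identifiers, so intervals and floors cover counting error only. The count that ignores strand was used, without the 4 summary lines (18.9% to 21.9% of all counts). Symbols, positions, exonic length and GC content came from GENCODE M21 (GRCm38), with 49326 of 49585 identifiers matched and all 46 members found. Reads that map to several places are on a summary line, so genes with near-identical copies may be undercounted.

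Genes passed edgeR's expression filter (minimum count 10) and entered the fit of edgeR 4.0.16, run in R 4.3.3 (TMM, quasi-likelihood, genotype as the only term, Benjamini-Hochberg over all tested genes). On simulated data this fit missed nearly all of the smaller changes tried and many of the larger ones. Its share of false calls came out above the nominal level, though within counting error of it. That criterion was set after a first limit on the false share had failed. The simulation changed 200 genes, against 2109 called in the data, so these shares need not hold for the data. A gene that was not called may still differ. Replicates were separate brains. The alternatives were other scalings, filters and strand columns, DESeq2 1.42.0, limma-voom 3.58.1, a replicate block, a GC and length offset, thinning, a 2-fold threshold and leaving out each library. The members, lists and naming rule (every member, the 4 called genes with the smallest p of each wider list, the 2 most abundant of a marker list where a level is given) were chosen with earlier results of these data known.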

Additional observations from a re-analysis of the deposited data

How the results depend on the processing

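The calls of Ccnd2, Cenpa and Aurka held in every alternative that gave a value for them, and 2 or 3 mitosis members were called in each. With library size as the only scaling the median of all genes moved from −0.11 to −0.61 and 25.4% instead of 50.5% of the called genes were higher in IRF8KO. With Apoe left out of the library size the median was −0.13 and 59.3% of the called genes were higher. Apoe averaged 2104 CPM in WT and 357729 CPM in IRF8KO. The number of called genes ran from 910 to 4003 when 1 library was left out, the highest without WT replicate 3, and that of the wider lists from 5 to 30. Called replication members numbered 5 with DESeq2 and ran from 0 (without IRF8KO replicate 3) to 6 (without WT replicate 3). With at least 10 counts required in every library 0 G1 regulators were called by edgeR, since Ccnd2 was not tested.

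The median log2 fold change of the tested mitosis members was 0.72 with library size alone, 1.80 with limma-voom, 0.27 without a filter, 0.089 with at least 10 counts in every library, 0.27 and 0.0050 in the columns of either strand, 1.67 with the GC and length offset and 1.76 after thinning. Leaving out 1 library gave 0.0067 to 1.19. The number of tested genes stayed at 6 with library size alone, limma-voom and the offset, and was 4 to 17 in the other settings of this paragraph. The median of the replication set was 0.51 without a filter and 0.53 after thinning, and 0.24 to 0.61 when 1 library was left out.

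The log2 fold changes of 8 members that were not called changed sign. With library size alone, which lowers all genes, they were −0.16 for Mcm5, −0.39 for Dnmt1, −0.090 for Ccne1, −0.22 for Ccnd1, −0.26 for Cdk1 and −0.44 for Cks2, and this is the only reversal of Mcm5 and Ccnd1. With limma-voom they were 0.21 for Mcm4 and −0.46 for Ccne1, and with the GC and length offset 0.22 for Mcm4 and −0.59 for Cks2. Leaving out 1 library gave −1.83 to 0.81 for Mcm4, −0.032 to 0.44 for Dnmt1, −0.88 to 1.76 for Ccne1, −0.52 to 0.48 for Ccnd3, −0.082 to 0.55 for Cdk1 and −0.11 to 0.44 for Cks2. The cause of the reversals outside library size alone was not tested.

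Same-numbered libraries of both genotypes did not deviate together (correlations of −0.26, 0.33 and 0.11), so the numbers were not taken as pairs. With a replicate block 2353 genes were called, the mitosis median was 1.78, Mcm6 was no longer called (edgeR adjusted p = 0.068) and Tk1 was (0.047). A count of 0 allows up to 0.584 CPM in WT replicate 1, the shallowest library at 3658917 counts, and 0.212 CPM in WT replicate 2.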
